A study of Mus musculus with 19 samples.

Results

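The genes described here are the matrix metalloproteases (MMPs), the ADAMTS proteases with the ADAMTS-like proteins, and the tissue inhibitors of metalloproteases (TIMPs). They were chosen by name, as protein-coding genes whose symbols begin with Mmp and a digit or with Adamts, or are Timp1 to Timp4. This gave 50 of the 54532 genes in the count table, namely 22 MMPs, 19 ADAMTS, 5 ADAMTS-like genes and 4 TIMPs. They were measured by bulk RNA-seq of whole kidneys 12 days after unilateral ureteral obstruction (UUO), in which the left ureter is tied and cut so that urine is retained and the kidney becomes inflamed and fibrotic. All 19 mice were males of 8 to 9 weeks on a C57BL/6J background, all had the obstruction, and all kidneys were perfused with heparin before harvest. The groups were wild-type (WT) mice given PBS (n = 5), WT mice given recombinant CD5L (rCD5L, n = 5), CD5L knockout (CD5L KO) mice given PBS (n = 4) and CD5L KO mice given rCD5L (n = 5). PBS or rCD5L, at 0.5 mg per mouse, was injected intraperitoneally each day. CD5L is a secreted protein of tissue macrophages, and the design asks how the obstructed kidney differs without it and when it is supplied. How the knockout allele was made is not given in the sources used here.

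MMPs and ADAMTS are zinc-dependent proteases that are made as inactive precursors and cut collagens, proteoglycans and other components of the extracellular matrix after removal of a propeptide. ADAMTS-like proteins share the ancillary domains of the ADAMTS but have no protease domain, and several of them bind fibrillin microfibrils. TIMPs block the active site of these enzymes. In the obstructed kidney, matrix is both laid down and degraded, and the enzymes come from fibroblasts, injured tubules and infiltrating leukocytes.

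The total count per kidney was 17917491 to 23847090. Cd5l had 0 counts in all 9 CD5L KO kidneys, which allows up to 3 counts in each, and 3 to 15 counts in the WT kidneys. Every gene on the lists for proximal tubule, thick limb and distal tubule, collecting duct, and podocytes was detected. Of 12 genes of the epididymis, 10 were also detected at low levels, their sum being 13.5 to 27.3 CPM in WT and 9.54 to 23.0 CPM in CD5L KO kidneys given PBS, and 17.8 to 42.6 and 26.4 to 63.2 CPM in those given rCD5L, while Cst11 and Lcn9 were at 0. CD5L KO replicate 4 given rCD5L stood apart from the other 18 kidneys. Its summed proximal tubule markers reached 9816 CPM (counts scaled to the size of each library), against 835 to 1926 CPM in the 14 kidneys of the other groups, and its fibroblast markers were 1319 CPM against 2625 to 5675 CPM. CD5L KO replicate 3 given rCD5L stood apart on the second principal component. Main counts and fold changes that rest on this group are also given without replicate 4 or without both.

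Levels between genes were compared as the deposited FPKM, which are scaled to gene length. A single protease and 3 inhibitors led the family. Adamts1, a secreted protease of versican and aggrecan, had a mean of 64.8 FPKM over the 19 kidneys, Timp2 64.4 FPKM, Timp1 64.4 FPKM and Timp3 55.1 FPKM. Over the kidneys Adamts1 ranged from 27.0 to 79.2 FPKM, Timp2 from 21.5 to 80.3 FPKM and Timp1 from 32.8 to 84.7 FPKM, so the order of these 3 lies within their spread. Next came, with overlapping ranges over the kidneys, the gelatinase Mmp2 (38.3 FPKM), the epithelial matrilysin Mmp7 (37.8 FPKM) and Mmp14 (32.5 FPKM), a membrane-bound enzyme that activates pro-MMP2. The order of these 3 differed by group, with means of 44.7 ± 8.03 FPKM for Mmp2, 35.1 ± 6.19 for Mmp14 and 31.3 ± 4.18 for Mmp7 in WT kidneys given PBS (SD, n = 5), and 45.9 ± 20.1 FPKM for Mmp7, 29.1 ± 5.68 for Mmp2 and 28.3 ± 2.73 for Mmp14 in CD5L KO kidneys given PBS (SD, n = 4). Mmp11, Mmp23, Adamts10, Adamts2 and Mmp3 followed, with means from 18.3 down to 7.55 FPKM. Timp4, the remaining inhibitor, was near the floor, with 5 to 28 counts per kidney.

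The summed FPKM of the 22 MMPs was 172 ± 21.9 (SD, n = 5) in WT kidneys given PBS and 159 ± 26.0 (SD, n = 4) in CD5L KO kidneys given PBS. The 19 ADAMTS summed to 113 ± 6.15 and 92.2 ± 4.03 FPKM in these groups, and the 5 ADAMTS-like genes to 17.8 ± 1.15 and 13.6 ± 1.06 FPKM. The 4 TIMPs summed to 193 ± 13.1 and 169.8 ± 6.05 FPKM. The ranges of the ADAMTS sums (87.3 to 96.8 FPKM in CD5L KO, 104 to 120.3 FPKM in WT) did not overlap, whereas those of the MMP sums did.

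**Figure D1:**
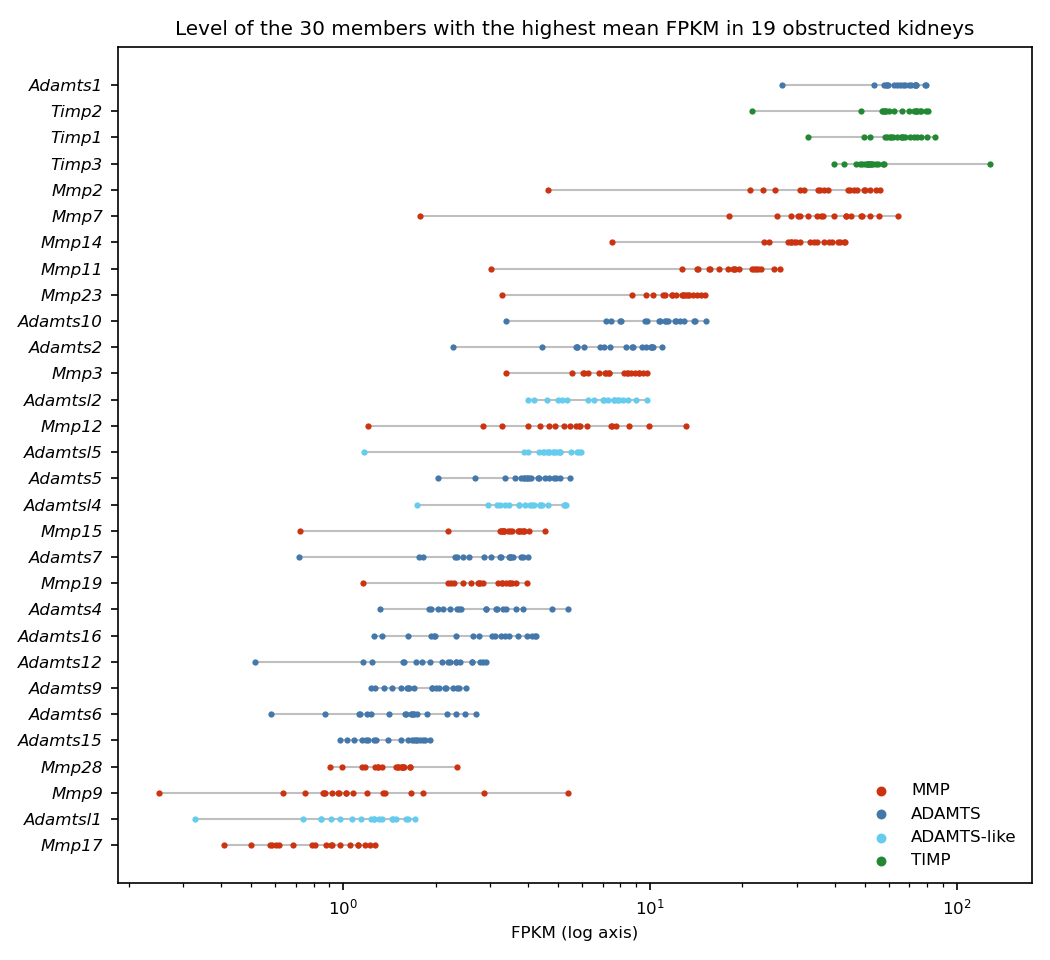
FPKM on a log axis for the 30 members with the highest mean, 1 point per kidney (n = 19) and colored by family, with a line from the lowest to the highest kidney. Adamts1, Timp2, Timp1 and Timp3 lead, and the isolated lowest point of many genes is CD5L KO replicate 4 given rCD5L.

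In each comparison 43 members passed the filter on low counts and 7 did not. Of the 7, the stromelysin Mmp10 had 0 to 21 counts per kidney, the von Willebrand factor protease Adamts13 0 to 12, Adamts20 0 to 16, Adamts18 0 to 15 and Adamts19 0 to 12. Mmp21 reached 2 counts and Mmp1b, a rodent collagenase, 1 count.

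Between the genotypes given PBS, the members that differed were lower in CD5L KO kidneys, and most of them were ADAMTS or ADAMTS-like genes. By the quasi-likelihood test of edgeR, adjusted by Benjamini-Hochberg, 12 of the 43 members tested were called at an adjusted p under 0.05, which is 27.9%, against 10.5% of all 17579 genes tested. All 12 were lower in CD5L KO, where 5.4% of all genes were called lower and 5.13% higher. The 12 were 7 ADAMTS, 3 ADAMTS-like genes and 2 MMPs (Mmp2 and Mmp23). At an unadjusted p under 0.05 there were 21 members (48.8%, against 26.6% of all genes). A lower mean was found for 37 of the 43 members (86%, against 50.7% of all genes), with a median log2 fold change of -0.29 for the members and -0.0046 for all genes. For 6 members (14%, against 6.84% of all genes) every CD5L KO kidney was below every WT kidney, and for 0 it was above (against 7.26% of all genes).

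**Figure D2:**
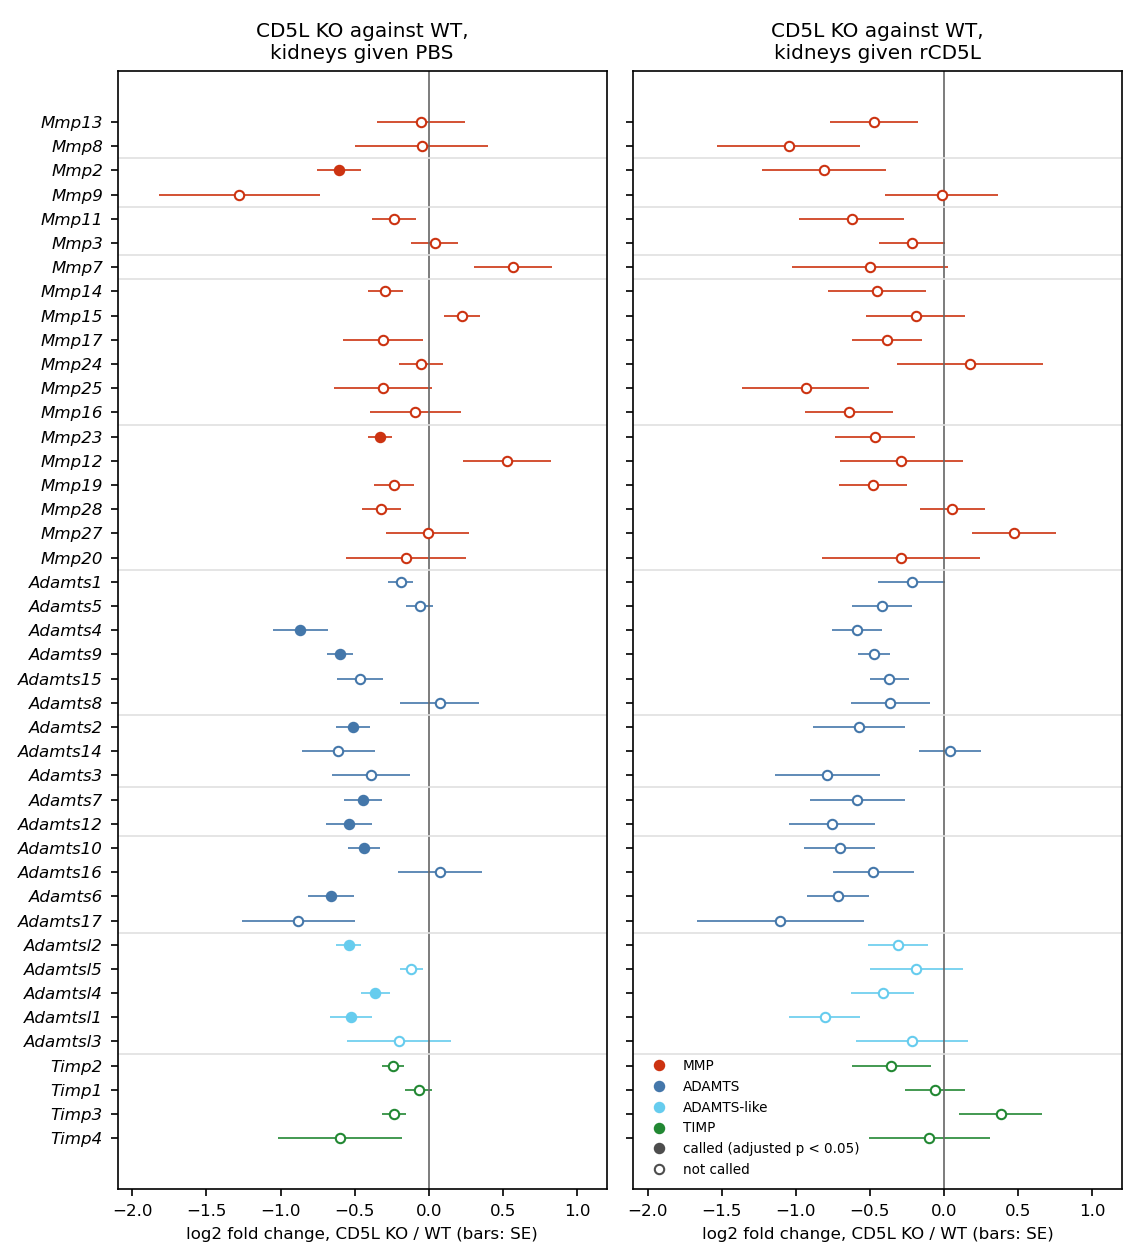
Log2 fold change of CD5L KO over WT for the 43 members tested, grouped by role, in kidneys given PBS (left) and rCD5L (right). Bars are SE from the edgeR fit, filled points are called. The 12 filled points on the left all lie below 0, and none is filled on the right.

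The ADAMTS that cut large proteoglycans held the member with the smallest p-value. Adamts9, a versican- and aggrecan-cleaving enzyme, measured 37.4, 44.2, 42.0, 46.0 and 36.0 CPM in the WT kidneys and 23.7, 26.9, 28.7 and 29.9 CPM in the CD5L KO kidneys, so the groups were apart. Its log2 fold change was -0.60 (SE 0.090), with an adjusted p of 0.00524 by edgeR. Adamts4, known as aggrecanase-1, had the largest fold of the called members. It measured 17.0, 32.0, 21.6, 28.1 and 19.9 CPM in WT and 11.5, 11.4, 17.3 and 12.1 CPM in CD5L KO kidneys, a log2 fold change of -0.87 (SE 0.19) with an adjusted p of 0.0139 by edgeR. Only CD5L KO replicate 3 reached the lowest WT kidney. The other members of this subgroup that are named were not called by edgeR: Adamts1, the most abundant, had a log2 fold change of -0.19 (SE 0.086), Adamts15 -0.46 (SE 0.16) and Adamts5, aggrecanase-2, -0.06 (SE 0.091). DESeq2 called Adamts15 lower. Adamts9 overlaps 3 noncoding genes of the opposite strand, whose reads cannot be told apart from its own without strand, which the sources do not state.

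Among the procollagen N-propeptidases, which trim the amino ends of fibrillar procollagens, Adamts2 measured 106, 116, 84.3, 114 and 81.3 CPM in WT and 66.9, 79.6, 65.98 and 70.4 CPM in CD5L KO kidneys. No CD5L KO kidney reached the lowest WT kidney, and the log2 fold change was -0.51 (SE 0.11) with an adjusted p of 0.0148 by edgeR. Adamts14 (-0.61, SE 0.25) and Adamts3 (-0.39, SE 0.26), which also processes VEGF-C, were not called. Adamts7 and Adamts12, grouped here as ADAMTS that degrade cartilage oligomeric matrix protein, were both called. Adamts12 measured 23.1 to 38.7 CPM in WT and 16.7 to 25.9 CPM in CD5L KO kidneys (log2 fold change -0.54, SE 0.16, adjusted p = 0.0464, edgeR). For Adamts7 the ranges were 19.7 to 27.1 and 14.1 to 22.3 CPM (log2 fold change -0.44, SE 0.13, adjusted p = 0.0494, edgeR), so both pairs of ranges overlapped and both p-values lay just under the threshold. The paralogs Adamts6 and Adamts10, of which the latter binds fibrillin, were lower as well. Adamts6 measured 25.6, 23.9, 20.8, 22.1 and 15.2 CPM in WT and 15.5, 16.3, 11.9 and 10.9 CPM in CD5L KO kidneys (log2 fold change -0.66, SE 0.16, adjusted p = 0.0215, edgeR), where WT replicate 5 fell within the CD5L KO range. Adamts10 measured 92.9, 81.5, 71.8, 85.5 and 75.0 CPM in WT and 65.0, 72.2, 50.2 and 53.8 CPM in CD5L KO kidneys (log2 fold change -0.44, SE 0.11, adjusted p = 0.0263, edgeR), with a single CD5L KO kidney above the lowest WT kidney.

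All 5 ADAMTS-like genes had a lower mean in CD5L KO kidneys and 3 were called. Adamtsl2, which binds fibrillin-1 and latent TGF-beta binding protein and is mutated in geleophysic dysplasia, measured 68.8, 61.8, 71.2, 76.9 and 74.6 CPM in WT and 41.5, 53.2, 49.5 and 50.9 CPM in CD5L KO kidneys. The groups lay well apart, at a log2 fold change of -0.54 (SE 0.083) and an adjusted p of 0.00526 by edgeR. Adamtsl1 measured 22.4, 21.0, 19.7, 26.7 and 20.4 CPM in WT and 13.4, 16.9, 11.7 and 19.4 CPM in CD5L KO kidneys (log2 fold change -0.53, SE 0.14, adjusted p = 0.0346, edgeR). Adamtsl4, mutated in isolated ectopia lentis, measured 19.9, 21.7, 19.1, 26.8 and 22.6 CPM in WT and 16.4, 16.9, 17.95 and 17.5 CPM in CD5L KO kidneys (log2 fold change -0.36, SE 0.097, adjusted p = 0.0345, edgeR). In neither gene did the groups overlap, though the gap was narrow. Adamtsl5 (-0.12, SE 0.075) was not called. Adamtsl1 shares its strand with Sh3gl2, so reads of the overlap could belong to either gene.

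**Figure D3:**
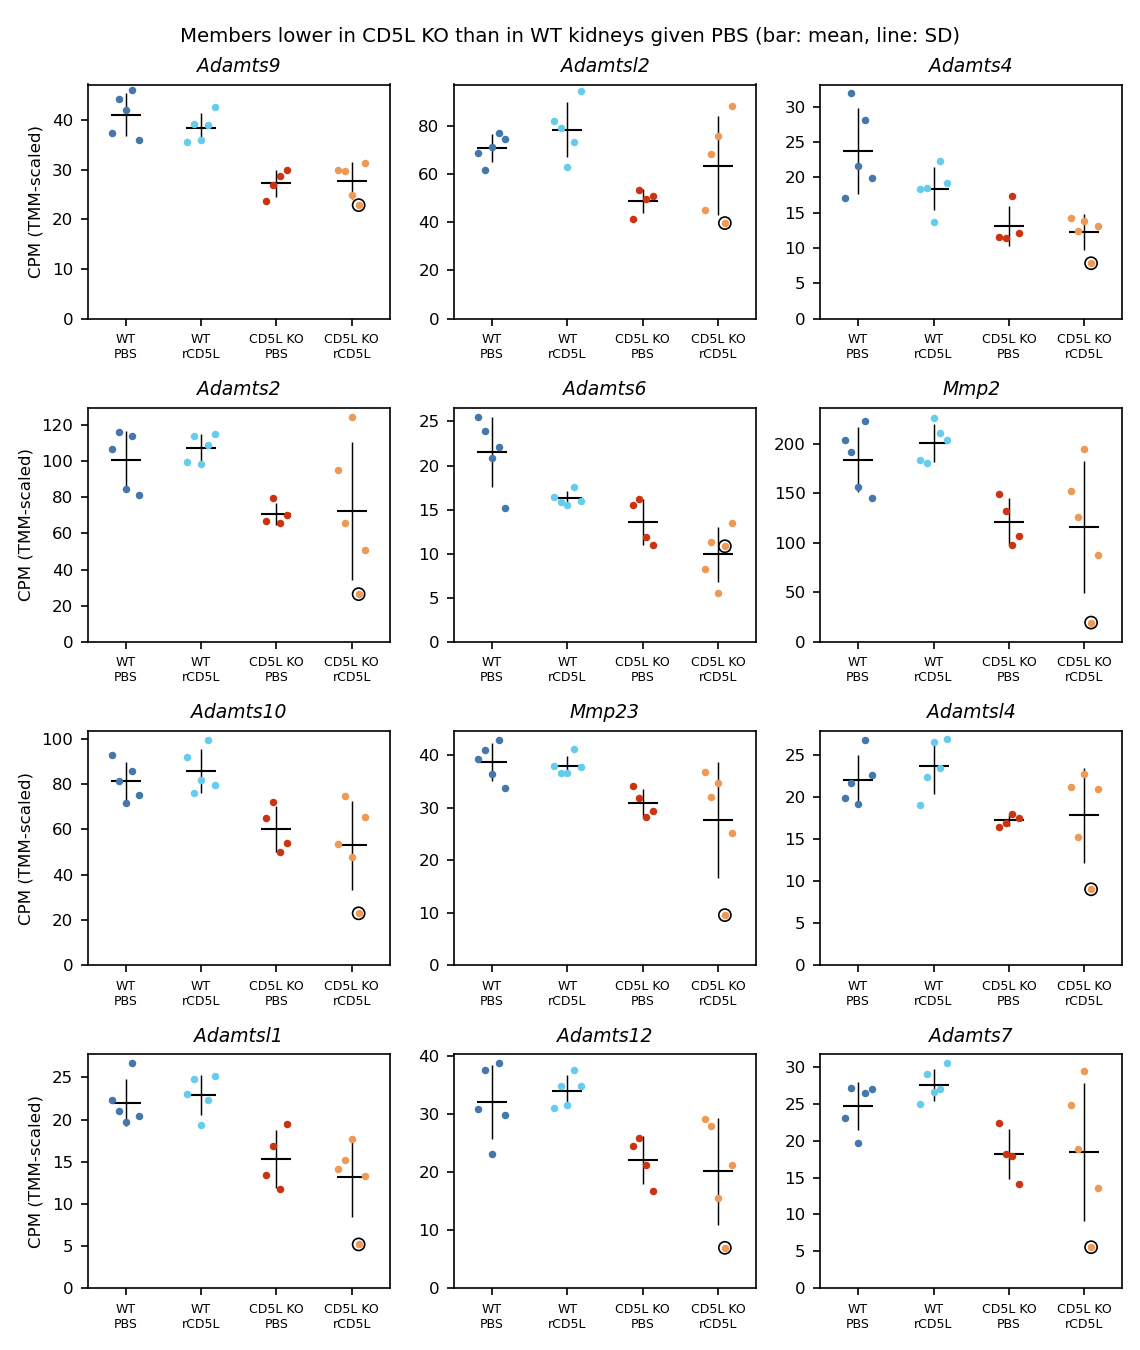
CPM per kidney of the 12 members called between the genotypes given PBS, in the 4 groups, each panel on its own axis from 0. Bars mark the mean and lines the SD; the circled point is CD5L KO replicate 4 given rCD5L. In Adamts9 all 9 CD5L KO kidneys lie below all 10 WT kidneys.

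Of the 19 MMPs tested 2 were called, both lower, a share equal to the 10.5% of all genes called. Mmp2, or gelatinase A, which degrades denatured and basement membrane collagen, measured 204, 192, 156, 223 and 146 CPM in WT and 149, 132, 97.5 and 106 CPM in CD5L KO kidneys. The log2 fold change was -0.61 (SE 0.15) with an adjusted p of 0.0221 by edgeR, and a single CD5L KO kidney, replicate 1, was above the lowest WT kidney. Mmp23, a membrane-anchored MMP without a hemopexin domain, measured 39.2, 41.0, 36.5, 43.0 and 33.8 CPM in WT and 34.1, 31.9, 28.1 and 29.5 CPM in CD5L KO kidneys (log2 fold change -0.33, SE 0.083, adjusted p = 0.0274, edgeR). Mmp14 measured 211 to 317 CPM in WT and 179.8 to 227 CPM in CD5L KO kidneys and was not called (log2 fold change -0.29, SE 0.12, adjusted p = 0.131, edgeR). None of the other 5 membrane-type MMPs was called either. The gelatinase Mmp9, a granule enzyme of neutrophils, measured 4.16, 12.5, 3.24, 23.2 and 3.75 CPM in WT and 4.70, 2.78, 3.75 and 4.22 CPM in CD5L KO kidneys. Its log2 fold change of -1.28 (SE 0.54), the furthest from 0 of all members here, was not called (adjusted p = 0.154, edgeR). WT replicates 2 and 4 were high and the other 3 WT kidneys lay among the CD5L KO kidneys. The summed neutrophil markers were 20.4 to 49.99 CPM in WT and 23.2 to 27.4 CPM in CD5L KO kidneys, and their part in the Mmp9 values was not tested.

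The remaining MMPs outside the chromosome 9 cluster were not called. Mmp11, or stromelysin-3, which is activated inside the cell by furin, measured 72.6, 90.4, 63.7, 77.7 and 53.4 CPM in WT and 76.3, 57.6, 61.8 and 48.6 CPM in CD5L KO kidneys (log2 fold change -0.23, SE 0.15, adjusted p = 0.346, edgeR), with overlap. Mmp15, a membrane-type enzyme, was among the 6 members with a higher mean in CD5L KO, at 21.8, 23.2, 14.4, 21.8 and 21.4 CPM in WT and 25.9, 22.0, 23.0 and 25.4 CPM in CD5L KO kidneys (log2 fold change 0.22, SE 0.12, adjusted p = 0.27, edgeR). The other 5 with a higher mean were Mmp3, Mmp7, Mmp12, Adamts8 and Adamts16.

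No TIMP was called. Timp2 came closest (log2 fold change -0.24, SE 0.074, adjusted p = 0.0547, edgeR), at 341, 365, 298, 349 and 286 CPM in WT and 282, 280.0, 275 and 276 CPM in CD5L KO kidneys, where no CD5L KO kidney reached the WT range. Timp3, which binds the matrix and also inhibits ADAMTS4 and ADAMTS5, measured 520.5, 514, 550.3, 571 and 572 CPM in WT and 400.5, 433, 514 and 516 CPM in CD5L KO kidneys (log2 fold change -0.23, SE 0.080, adjusted p = 0.0827, edgeR). For Timp1, the inducible inhibitor of the family, the ranges of 64.3 to 92.5 CPM in WT and 66.6 to 77.1 CPM in CD5L KO kidneys overlapped (log2 fold change -0.07, SE 0.093, adjusted p = 0.687, edgeR). Its log2 fold change turned to 0.012 without WT replicate 2. DESeq2 called both Timp2 and Timp3 lower.

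The 9 MMPs that follow lie side by side on chromosome 9 (GRCm38, 7272514 to 7699585) in the order Mmp13, Mmp12, Mmp1b, Mmp3, Mmp10, Mmp8, Mmp27, Mmp20 and Mmp7. None of the 7 that were tested was called between the genotypes given PBS, which with 10.5% of all genes called is near the background for so few genes. Their median log2 fold change was -0.0087, against -0.32 for the other 36 members tested, 33 of which had a lower mean. The matrilysin Mmp7 measured 33.6, 37.8, 45.6, 46.7 and 40.4 CPM in WT and 73.5, 60.0, 85.2 and 23.8 CPM in CD5L KO kidneys (log2 fold change 0.57, SE 0.26, adjusted p = 0.189, edgeR). Of the 4 CD5L KO kidneys, 3 were above every WT kidney and replicate 4 was below all of them. Without that kidney Mmp7 was called higher (0.84, adjusted p = 0.00796, edgeR). Mmp12, the macrophage elastase, measured 51.4, 66.4, 38.9, 51.8 and 35.6 CPM in WT and 69.2, 67.4, 29.6 and 117 CPM in CD5L KO kidneys (log2 fold change 0.53, SE 0.29, adjusted p = 0.277, edgeR), and was called higher only without CD5L KO replicate 3, its lowest kidney. Mmp3, or stromelysin-1, measured 13.3 to 20.9 and 12.4 to 20.5 CPM (0.04, SE 0.16), and the collagenase Mmp13 1.30 to 3.54 and 1.88 to 2.35 CPM (-0.05, SE 0.30), and in both genes the ranges overlapped.

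The promoters of called members and of the cluster are described by their letters only. The 100 bases before the RefSeq start are shown for the 3 ADAMTS and ADAMTS-like genes with the smallest p-values among the called members that have a promoter in the table and for 3 MMPs of the cluster. The RefSeq table (GRCm38.p6) held promoters for 35 of the 50 members, including 6 of the 12 called. Each window is written 5′ to 3′, with capitals for the AP-1 site (TGAGTCA), the TATA box (TATAAA) and the GC box (GGGCGG), each searched on both strands; the motifs do not overlap each other. The windows are those of Adamts9 (chr6:92943535-92943634, minus strand), Adamtsl2 (chr2:27079279-27079378, plus strand), Adamts2 (chr11:50601985-50602084, plus strand), Mmp13 (chr9:7272414-7272513, plus strand), Mmp3 (chr9:7445722-7445821, plus strand) and Mmp7 (chr9:7691990-7692089, plus strand).
Adamts9: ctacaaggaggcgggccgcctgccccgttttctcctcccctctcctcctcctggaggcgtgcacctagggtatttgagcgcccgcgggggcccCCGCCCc
Adamtsl2: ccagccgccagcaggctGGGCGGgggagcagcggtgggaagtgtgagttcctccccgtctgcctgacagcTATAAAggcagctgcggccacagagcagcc
Adamts2: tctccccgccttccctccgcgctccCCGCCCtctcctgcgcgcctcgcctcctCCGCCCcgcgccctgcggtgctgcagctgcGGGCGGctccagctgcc
Mmp13: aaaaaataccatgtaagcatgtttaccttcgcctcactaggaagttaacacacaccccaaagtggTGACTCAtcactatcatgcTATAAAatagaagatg
Mmp3: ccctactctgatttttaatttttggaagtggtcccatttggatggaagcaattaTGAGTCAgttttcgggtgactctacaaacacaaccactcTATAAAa
Mmp7: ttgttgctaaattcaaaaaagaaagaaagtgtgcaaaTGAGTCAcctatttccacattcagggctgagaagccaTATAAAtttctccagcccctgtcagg
Adamts9 has a GC box 7 bases before the start, and Adamts2 has 3, at 75, 47 and 17 bases. Adamtsl2 has 1 at 83 bases beside a TATA box at 30 bases. The RefSeq start of Adamts9 lies 42 bases from the nearest start in the GENCODE annotation, so its position depends on the start used. The MMPs have no GC box here but an AP-1 site, at 35 bases in Mmp13, 46 in Mmp3 and 63 in Mmp7, followed by a TATA box.

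Over windows from 250 bases before to 50 after the start, the AP-1 letters were in 5.2% of all 32851 promoters and in 6 of the 38 promoters of members (15.8%). Those 6 belonged to Mmp13, Mmp12, Mmp1b, Mmp3, Mmp10 and Mmp7, all in the chromosome 9 cluster. The GC box was in 35.7% of all promoters, in 22 of the 38 (57.9%) and in 0 of the 11 promoters of the cluster. Of the 7 promoters of called members, 5 held a GC box and 0 held the AP-1 letters. The TATA box was in 13.6% of all promoters, in 11 of the 38 (28.9%) and in 8 of the 11 in the cluster. A match of letters is a description and does not show that a factor binds.

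**Figure D4:**
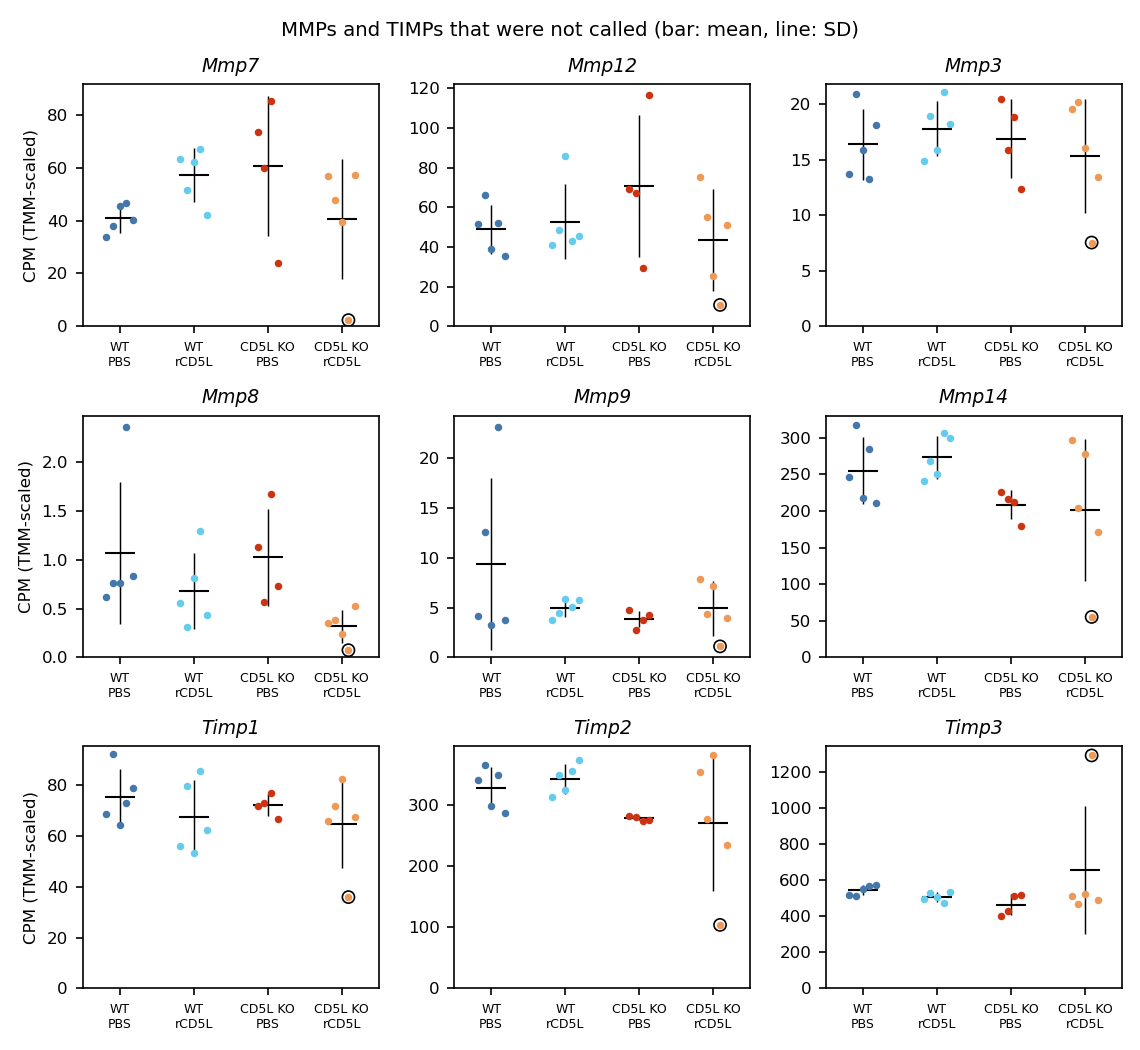
CPM per kidney of 6 MMPs and 3 TIMPs in the 4 groups, with the mean (bar) and SD (line), each axis from 0. The main edgeR fits called none of them in any comparison, though DESeq2 called Mmp7, Timp2 and Timp3. CD5L KO replicate 4 given rCD5L is circled, lowest in 8 of the 9 panels and highest in Timp3.

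Other genes that act with these enzymes were read from 2 lists. Among 23 tested substrates of the matrix and cell surface, 18 were called lower and 1, the osteopontin gene Spp1 (0.51, SE 0.11), higher in CD5L KO kidneys (78.3% lower and 4.35% higher, against 5.4% and 5.13% of all genes), with a median log2 fold change of -0.54. Examples were the versican gene Vcan (-0.73, SE 0.19), the procollagen gene Col1a1 (-0.61, SE 0.15), Col3a1 (-0.86, SE 0.14), and the fibrillin gene Fbn1 (-0.85, SE 0.14). Among 36 tested proteases and regulators, 7 were called lower (19.4%, against 5.4% of all genes) and 2 higher (5.56%, near the 5.13% of all genes). Among those lower were the MMP inhibitor gene Reck (-0.29, SE 0.071), Lrp1 (-0.53, SE 0.088), an endocytic receptor that clears MMPs and ADAMTS, and Adam12 (-0.82, SE 0.15). Bsg (0.23, SE 0.054), which encodes an inducer of MMPs, and the cathepsin gene Ctsl (0.23, SE 0.061) were the 2 called higher.

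Markers of fibroblasts and myofibroblasts were, in sum, also lower in CD5L KO kidneys given PBS. Their sum over 10 genes, none at 0, was 3775 to 5675 CPM in WT and 2625 to 3594 CPM in CD5L KO kidneys given PBS. Of the 10, 7 were called lower (among them Pdgfra, -0.50, SE 0.069, and Acta2, -0.74, SE 0.16) and in 6 the groups did not overlap, where 5.4% of all genes were called lower and 6.84% did not overlap. This list shares Col1a1, Col3a1 and Fbn1 with the substrates. Correlations left out CD5L KO replicate 4 given rCD5L and used the mean log2 CPM of the 10 fibroblast markers. Over the 18 kidneys, log2 CPM of Mmp2 and this mean had a Pearson's r of 0.89. Over the 12 called members r ran from 0.33 (Adamtsl2) and 0.48 (Adamts6) to 0.91 (Mmp23), with Adamts9 at 0.69. Mmp7 was at -0.19. These r are a description across kidneys of 4 groups that share 1 scaling. Group means were not removed, so the genotype difference by which the 12 members were called enters r. Endothelial markers were 507 to 585 CPM in WT and 422 to 472 CPM in CD5L KO kidneys, with a lower mean for 5 of 5 genes, 3 of them called, and a median log2 fold change of -0.34. Macrophage markers summed to 2290.1 to 3011 and 2103 to 3454 CPM, with 5 of 8 lower and 1 called, and urothelial markers to 26.7 to 191 and 229.6 to 369 CPM, with 6 of 6 higher, none called, and a median of 0.81. Podocyte markers summed to 434 to 502 and 360.2 to 444 CPM, with a lower mean for 4 of 4 genes and 1 called, and smooth muscle markers to 243 to 419 and 225 to 316 CPM, with a lower mean for 5 of 5, none called, and a median log2 fold change of -0.48. The part of these cell types in the members' values was not tested. In whole kidneys, fewer cells of a type and less RNA per cell cannot be told apart.

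The number of calls depended on single kidneys. Leaving out 1 kidney at a time gave 4 to 13 called members, and Adamts2, Adamts4, Adamts9 and Adamtsl2 were called in all 9 fits. In the same fits 5.81% to 11.8% of all genes were called, against 9.3% to 30.2% of the members. It was 4 without WT replicate 2 or 4, 5 without CD5L KO replicate 3, and 7 without CD5L KO replicate 2 or 4. Fold changes also fell with gene length across genes (Spearman's rho = -0.28 over 17579 genes, which are not independent replicates), and called members were long, with a median of 7040 bases against 3808 for all genes. With an offset that removed this trend, Adamts2, Adamts4, Adamts9, Adamtsl2, Mmp2 and Mmp23 were called (14%, against 7.78% of all genes). The median log2 fold change of the members was -0.24 with the offset and -0.29 without, and 37 of the 43 were lower in both. In 1 fit of all 19 kidneys, where the biological coefficient of variation was 22.1% against 12.6%, 12 genes in all were called and Adamts9 was the member among them.

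The 2 genotypes given rCD5L share no kidney with the comparison above. No member was called there by edgeR, as was no gene of 17360 (0%), but the members again lay on the lower side. A lower mean in CD5L KO was found for 38 of the 43 (88.4%, against 51.1% of all genes), and 8 had an unadjusted p under 0.05 (18.6%, against 17.8% of all genes). Without CD5L KO replicate 4 the mean was lower for 34 members (79.1%), and 13 had an unadjusted p under 0.05 (30.2%, against 16.2% of all genes). Without replicate 3 these counts were 40 and 15 (34.9%, against 20.2%). DESeq2 called 1 member, Adamts9 (2.04%, against 0.205% of all genes), and limma on log2(FPKM + 1) called 0. The single fit of all 19 kidneys called 4, which was 9.3% of the members against 7% of all genes. The median log2 fold change of the members was -0.42, and -0.27 without CD5L KO replicate 4. All 12 members called in the PBS kidneys had a lower mean here too. So did 864 of the 945 tested genes that were called lower in the PBS kidneys (91.4%), so the share of the members was near that of all such genes. Markers of other cells also leaned in this comparison, with none called in the fit of all its kidneys. The fibroblast markers had a lower mean in CD5L KO for 10 of 10 genes (median log2 fold change -0.42), the podocyte markers for 4 of 4 (-0.45) and the macrophage markers for 8 of 8 (-0.22), while the proximal tubule markers had a higher mean for 5 of 5 (1.43). Without CD5L KO replicate 4 these were 9 of 10 (-0.28), 4 of 4 (-0.37), 4 of 8 (0.00028) and 3 of 5 (0.12). The mean was also lower for 5 of 5 smooth muscle (-0.44), 5 of 5 lymphocyte (-0.49) and 4 of 5 endothelial markers (-0.25). It was higher for 6 of 6 urothelial (0.46), 3 of 3 collecting duct (0.67) and 3 of 3 thick limb and distal tubule markers (0.27). Without replicate 4 the lower lists stood at 4 of 5 (-0.24), 5 of 5 (-0.25) and 5 of 5 (-0.21). The higher lists then stood at 6 of 6 (0.54), 2 of 3 (0.35) and 1 of 3 (-0.13). The summed ranges were 3945 to 5400.1 CPM in WT and 1319 to 4879 CPM in CD5L KO for fibroblasts and 836 to 1282 and 1069.6 to 9816 CPM for the proximal tubule (from 2614 and up to 1753 CPM in CD5L KO without replicate 4), and their part in the members' values was not tested.

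Adamts9 measured 35.5, 39.2, 36.1, 39.0 and 42.7 CPM in WT and 30.04, 29.8, 24.9, 22.9 and 31.4 CPM in CD5L KO kidneys given rCD5L, again without overlap (log2 fold change -0.47, SE 0.11, adjusted p = 0.259, edgeR, and -0.42 without replicate 4). Over all 19 kidneys it was the 1 member with every CD5L KO kidney below every WT kidney, which held for 0.58% of 18454 genes, or 0.618% without CD5L KO replicate 4 given rCD5L. Adamts6 measured 16.4, 15.9, 15.6, 17.6 and 16.0 CPM in WT and 8.28, 11.4, 5.52, 10.8 and 13.5 CPM in CD5L KO kidneys (log2 fold change -0.72, SE 0.21, and -0.57 without replicates 3 and 4), with CD5L KO replicate 3 lowest. Adamtsl1 measured 23.0, 24.8, 19.3, 22.4 and 25.1 CPM in WT and 14.2, 15.3, 17.7, 5.20 and 13.3 CPM in CD5L KO kidneys (-0.81, SE 0.24, and -0.61 without replicate 4), and here replicate 4 was lowest. Adamts10 and Adamts12 were the other 2 of the 5 members whose groups did not overlap (11.6%, against 3.09% of all genes lower in this way), while 0 members and 4.29% of all genes were higher in this way. In contrast, Adamtsl2 measured 81.9, 79.2, 63.0, 73.4 and 94.4 CPM in WT and 45.0, 68.4, 75.9, 39.6 and 88.3 CPM in CD5L KO kidneys (-0.31, SE 0.20, and -0.19 without replicate 4), so 3 of the 5 CD5L KO kidneys lay within the WT range. Mmp2 measured 183, 181, 226, 211 and 204 CPM in WT and 152, 126, 194, 19.4 and 87.5 CPM in CD5L KO kidneys (-0.81, SE 0.42, and -0.53 without replicate 4), and in CD5L KO the kidneys ran from far below the WT range to inside it. Without CD5L KO replicates 3 and 4, an alternative chosen after seeing the data, 7 members were called, all lower. They were Adamts2, Adamts6, Adamts9, Adamts15, Adamtsl1, Mmp2 and Mmp25, which was 16.3% of the members against 3.58% of all genes. In this fit 3 of 10 fibroblast markers (median log2 fold change -0.39) and 3 of 5 endothelial markers (-0.30) were also called lower. So was 1 of 3 thick limb and distal tubule markers (-0.34), and the part of these markers in the members' values was not tested.

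In WT mice, rCD5L against PBS gave no called member among 43 by edgeR, nor any gene of 17455 (0%). At an unadjusted p under 0.05 there were 4 members (9.3%, against 16% of all genes). The smallest p belonged to Mmp7, a target of Wnt signaling in injured tubules, which measured 33.6, 37.8, 45.6, 46.7 and 40.4 CPM with PBS and 63.3, 51.4, 62.2, 67.0 and 42.1 CPM with rCD5L. Of the 5 kidneys given rCD5L, 4 were above every kidney given PBS (log2 fold change 0.50, SE 0.12, adjusted p = 0.109, edgeR). Mmp7 was called with DESeq2 (among 508 genes) and in edgeR without the filter on low counts (among 137), and limma on FPKM called no member. Adamts6 measured 25.6, 23.9, 20.8, 22.1 and 15.2 CPM with PBS and 16.4, 15.9, 15.6, 17.6 and 16.0 CPM with rCD5L (log2 fold change -0.39, SE 0.11, adjusted p = 0.134, edgeR). Only replicate 5 of the PBS kidneys lay below the kidneys given rCD5L, and DESeq2 called this gene lower. Mmp15, a membrane-type enzyme (0.24, SE 0.11), and Adamts4 (-0.35, SE 0.16) were the other two. The mean was lower with rCD5L for 16 of the 43 members (37.2%, against 48.7% of all genes), with a median log2 fold change of 0.11. In 0 members were the 2 treatments without overlap, against 2.11% of all genes lower and 1.47% higher. Across genes the fold change rose with gene length in this comparison (Spearman's rho = 0.24). Of the markers, 5 of 5 for the proximal tubule had a lower mean with rCD5L (median log2 fold change -0.30). So did 6 of 6 urothelial (-0.15), 5 of 6 neutrophil (-0.48), 4 of 5 endothelial (-0.15) and 4 of 5 smooth muscle markers (-0.34). Lymphocyte markers were higher for 5 of 5 (0.59), with 1 of 6 epididymis markers lower (0.67). By edgeR, 2 proximal tubule, 3 endothelial and 4 epididymis markers had an unadjusted p under 0.05. Their part in the members' values was not tested.

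In CD5L KO mice, rCD5L against PBS also gave no called member by edgeR and no called gene of 17467 (0%). A single member, Mmp8, had an unadjusted p under 0.05 (2.33%, against 2.87% of all genes), and neither DESeq2, with 3 genes called, nor limma called a member. Mmp8 is the collagenase of neutrophil granules. Its raw counts were 25, 13, 33 and 14 with PBS and 8, 9, 5, 1 and 12 with rCD5L, so every kidney given rCD5L was below every kidney given PBS, on few reads (log2 fold change -1.61, SE 0.47, adjusted p = 0.897, edgeR, and -1.41 without replicate 4). The summed neutrophil markers were 23.2 to 27.4 CPM with PBS and 8.13 to 27.2 CPM with rCD5L (21.7 to 27.2 CPM without replicate 4). Several other lists leaned as well. Proximal tubule markers had a higher mean with rCD5L for 5 of 5 genes (median log2 fold change 1.25, and 0.011 without replicate 4). Thick limb and distal tubule markers were higher for 3 of 3 (0.50, and 0.17). Urothelial markers were lower for 6 of 6 (-0.50, and -0.42), and podocyte markers for 4 of 4 (-0.22, and -0.086). Epididymis markers were lower for 1 of 6, with 4 of 6 at an unadjusted p under 0.05 by edgeR (1.40, and 1.39). None was called, and the part of these markers in the members' values was not tested. Mmp8 was the 1 member with every kidney given rCD5L below every kidney given PBS (2.33%, against 1.35% of all genes lower and 0.99% higher). A lower mean with rCD5L was found for 26 of the 43 members (60.5%, against 46.5% of all genes). Without CD5L KO replicate 4 given rCD5L the lean turned, with a lower mean for 13 (30.2%, against 49% of all genes) and an unadjusted p under 0.05 for 5 (11.6%, against 5.54% of all genes). Those 5 were Mmp8, Mmp9, Mmp28, Adamtsl2 and Adamtsl5, and 0 members were called. Mmp7 measured 73.5, 60.0, 85.2 and 23.8 CPM with PBS and 56.8, 47.7, 39.5, 2.34 and 57.2 CPM with rCD5L, which overlapped. Adamtsl2 measured 41.5, 53.2, 49.5 and 50.9 CPM with PBS and 45.0, 68.4, 75.9, 39.6 and 88.3 CPM with rCD5L (log2 fold change 0.39, SE 0.22, and 0.52 without replicate 4). Adamts6 measured 15.5, 16.3, 11.9 and 10.9 CPM with PBS and 8.28, 11.4, 5.52, 10.8 and 13.5 CPM with rCD5L (-0.45, SE 0.25, and -0.49 without replicate 4). In both genes the ranges overlapped.

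A single kidney of this group stood apart in most members. CD5L KO replicate 4 was the lowest of all 19 kidneys in 33 of the 43 members, whereas it was lowest in 29.3% of 18454 genes. Mmp7 was at 2.34 CPM there against a mean of 50.3 CPM in the other 4 kidneys of its group, Mmp2 at 19.4 against 140.1 CPM, and Mmp14 at 55.2 against 238 CPM. Timp3 was the 1 member with its highest value in this kidney, at 1295 against 498 CPM. Adamts9 (22.9 against 29.0 CPM), Adamts6 and Adamts15 were close to their group. The kidney also had 811 CPM of macrophage markers, where the other groups had 2103 to 3454 CPM, and the part of its cell makeup in these values was not tested. With it the members' median log2 fold change for rCD5L in CD5L KO was -0.06, and without it 0.08.

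The interaction asks whether rCD5L changed a member differently in the 2 genotypes. No member and no gene of 18454 (0%) was called by edgeR, 0 of the 43 had an unadjusted p under 0.05 (against 6.25% of all genes; without CD5L KO replicate 4 given rCD5L, 3 members or 6.98%, against 4.97%), and DESeq2 and limma called 0 members. The smallest p-values were those of Adamts14 (log2 difference 0.67, SE 0.33), Timp3 (0.63, SE 0.32) and Mmp9 (1.29, SE 0.71), all at an adjusted p of 0.731 by edgeR. For Timp3 the difference was 0.19 without CD5L KO replicate 4 given rCD5L, and for Mmp9 it was 0.63 without WT replicate 4 given PBS. The coefficient of variation in this fit was 22.1%, which limits the differences that could be detected.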

How the data were processed

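Counts and FPKM of 19 whole obstructed kidneys were analysed, in the 4 groups given by the sample labels, each kidney from a separate mouse. The authors trimmed paired-end reads of random-primed libraries (Trimmomatic), mapped them to GRCm38 (HISAT2) and deposited raw counts per gene from featureCounts. The deposited FPKM values are the authors' own. Strand and multiple-mapping settings are not given in the sources used here.

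Tests used the quasi-likelihood F-test of edgeR 4.0.16 in R 4.3.3 on counts with TMM scaling, after filterByExpr at its default minimum of 10. Each fit held the groups compared, or all 4 groups for the interaction. Genes with a Benjamini-Hochberg adjusted p under 0.05, over all genes tested, were called. SE is the size of the log2 fold change divided by the square root of F. CPM were scaled by TMM over the 19 kidneys. Limits for counts of 0 cover counting error only. The alternatives tried were DESeq2 1.42.0, RLE scaling, no filter, a single fit of all kidneys, a block for the replicate number, limma 3.58.1 on FPKM, an offset for gene length (lowess, span 0.3), a log2 fold change of at least 1, and leaving out kidneys. Fits were tested on simulated data. Members named are those called, the 3 with the smallest p per comparison, the most expressed by role, and those known in matrix turnover. Some genes of the lists are not reported here. The members and lists were chosen with earlier results of these data known.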

Additional observations from a re-analysis of the deposited data

Results flagged for a closer look

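Of 116 groups of kidneys over the 29 named members, 7 held a kidney far from the rest of its group by Dixon's test at 95%, where chance gives about 1 in 20. CD5L KO replicate 4 given rCD5L accounted for 3 of them: Timp3 was high (1295 CPM, the nearest other kidney 522 CPM), whereas Adamtsl5 (6.81 against 29.0 CPM) and Adamts4 (7.84 against 12.5 CPM) were low. Adamts4 was high in CD5L KO replicate 3 given PBS (17.3 against 12.1 CPM). Mmp12 was high in WT replicate 3 given rCD5L (85.9 against 48.3 CPM). Of the WT kidneys given PBS, replicate 3 was low for Mmp15 (14.4 against 21.4 CPM) and replicate 4 was high for Mmp8 (2.37 against 0.834 CPM).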

How the results depend on the processing

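Between the genotypes given PBS, the 12 called members became 0 at a log2 fold change of at least 1, 1 with all 19 kidneys in 1 fit, 7 with limma on log2(FPKM + 1) or log2(FPKM + 0.1) (16.7%, against 6.76% of all genes), 2 with limma and no filter (4%, against 3.06%), and 6 with the gene length offset. DESeq2 called 15 (30%, against 8.14%), adding Adamts15, Timp2 and Timp3. Leaving out 1 kidney gave 4 to 13. RLE scaling called 11 (25.6%, against 10.6% of all genes), without Adamts7. With the replicate number as a block 14 members were called (32.6%, against 12.1% of all genes), again without Adamts7. However, same-numbered kidneys deviated together with an r of only -0.05 to 0.11, and 4 of 9 correlated best with their own number. The numbers were therefore not taken as pairs. For rCD5L in WT, 2 members were called with DESeq2 (4.08%, against 1.6% of all genes) and 1 without the filter (2.04%, against 0.43%). For the genotypes given rCD5L, DESeq2 called 1, all 19 kidneys in 1 fit 4 (9.3%, against 7% of all genes), and the fit without CD5L KO replicates 3 and 4, chosen after seeing the data, called 7. The block changed no count of the other 4 comparisons from 0. The 12 called members kept their negative sign under the alternatives run, and Timp1 lay between -0.12 and 0.012 with 1 kidney left out, above 0 without WT replicate 2 given PBS. Causes were not tested. At 4 or 5 kidneys a group, with a coefficient of variation of 27.0% and 28.8% in the 2 pairwise fits that hold CD5L KO kidneys given rCD5L, modest changes could be missed.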
